A study of Mus musculus with 8 samples.

Results

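The sirtuins and 3 enzymes that make the NAD they consume were examined in the renal cortex of aged and young mice. The 10 genes, taken by symbol, were Sirt1 to Sirt7, Nampt, Nmnat1 and Nmnat3, out of 22609 genes counted. All 10 passed edgeR's filter on low counts, as did 13944 genes in all. RNA from the kidney cortex was sequenced in 4 aged and 4 young male C57BL6 mice, with 1 library per mouse. By the sample labels the aged mice were 30 months old and the young mice 5 months old (the mean ages in the study's methods and design text differ slightly from these), and neither group was treated or carried an engineered allele named there. Both groups were male and of 1 strain, so the comparison covers only these. The question was whether mRNA of these genes differed between the age groups.

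Sirtuins are enzymes that remove acetyl and other acyl groups from lysines of proteins and use up NAD in each reaction. Cells rebuild NAD mainly from the nicotinamide released by such reactions, in a salvage route whose rate-limiting enzyme is Nampt. Nampt makes nicotinamide mononucleotide, which the adenylyl transferases Nmnat1 in the nucleus and Nmnat3 in mitochondria join to an adenylyl group to give NAD. In the kidney, proximal tubule cells are rich in mitochondria, and sirtuin activity there has been linked to fuel oxidation and stress resistance.

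Depth on genes was 14820804 to 19018543 counts in the aged libraries and 15152597 to 19821429 in the young libraries. A count of 3, taken as the floor, corresponded to 0.147 to 0.204 CPM (counts over the TMM-scaled library size), and every gene described here by name in CPM had a mean above it in both groups. No library had the same counts as another. Markers of the proximal tubule, which makes up most of the labelled tissue, were abundant in all 8 libraries, and their summed level was 10489 to 37320 CPM in aged mice and 40010 to 45982 CPM in young mice. Without Kap, an androgen-responsive proximal tubule gene left out after its values were seen, the sums were 9559 to 23023 CPM and 19833 to 24194 CPM. Aged mouse 1 held the lowest of each and stood apart from the other 7 libraries. It was the highest or the lowest of the 8 mice in 57.7% of all genes tested, so for several genes values with and without it are given below. In bulk tissue, fewer cells of a type and less RNA per cell cannot be told apart.

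The promoters of Sirt1 and Nampt are shown because these are the members with the smallest p-values between the age groups. Both are GC-rich windows of the 250 bases before the RefSeq start in GRCm38.p6, written 5′ to 3′ on the gene's strand. The Sirt1 window is chr10:63339036-63339285 on the minus strand, and its capitals mark CACGTG, the canonical E-box that the clock proteins Clock, Npas2 and Bmal1 (the product of Arntl) can bind. The Nampt window is chr12:32820085-32820334 on the plus strand, and its capitals mark GGGCGG or its complement CCGCCC, the GC box bound by Sp family factors.
Sirt1: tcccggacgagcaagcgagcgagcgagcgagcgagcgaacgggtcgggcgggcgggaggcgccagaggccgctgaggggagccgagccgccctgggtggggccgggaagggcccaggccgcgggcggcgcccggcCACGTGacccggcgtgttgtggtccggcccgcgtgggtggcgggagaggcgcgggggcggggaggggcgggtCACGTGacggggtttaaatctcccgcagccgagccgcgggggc
Nampt: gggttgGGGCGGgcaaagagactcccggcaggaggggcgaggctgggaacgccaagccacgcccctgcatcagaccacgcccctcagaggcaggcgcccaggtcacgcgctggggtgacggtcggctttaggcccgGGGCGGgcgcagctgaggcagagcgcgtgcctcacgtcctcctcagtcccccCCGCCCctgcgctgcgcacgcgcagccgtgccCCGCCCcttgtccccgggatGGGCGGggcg
All 10 members had a promoter window, 13 windows in all. CACGTG, which reads the same on both strands, was found only in the Sirt1 window, at -115 to -110 and at -43 to -38 from the start. Neither match overlapped a GC box. Of 32851 mouse promoter windows of this length, 6.02% held CACGTG and 0.429% held it 2 times or more. GGGCGG, sought on both strands, was found in 10 of the 13 windows, which belonged to 9 of the 10 members (the exception was Sirt4). It was present in 32.7% of all windows. Sirt1 had 6 matches, of which the first pair shares bases, and Nampt had 5. TATAAA, sought on both strands, was found in none of the 13 windows and in 12.4% of all windows. CpG dinucleotides numbered 9 to 39 in the member windows, against a median of 6 over all windows. All windows were taken whether or not the gene passed the filter on low counts, while every member passed it. These matches describe letters, and binding was not measured. Sequence outside these windows was not searched, so a motif missing here may lie elsewhere in or near the gene.

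None of the 10 members differed between aged and young mice by both criteria, which were a fold above 1.5 and, in the edgeR quasi-likelihood test, a Benjamini-Hochberg adjusted p below 0.05. Across all genes tested 2.06% passed. At an unadjusted p below 0.05 there were 2 members, Nampt and Sirt1, against 25.5% of all genes. DESeq2 placed 3 members below that p and limma-voom 1, and neither called any member after adjustment. With 1 mouse left out edgeR placed 0 (without young mouse 2) to 3 (without aged mouse 2) members below it. The median log2 fold change of the members was -0.05, with a median size of 0.18. Over all genes tested these medians were 0.03 and 0.20. The sign of the estimate was positive in 4 members and negative in 6, and with scaling by library size alone it was positive in 6. That scaling moved the median of all genes by 0.11 on the log2 scale.

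Nampt, the salvage enzyme, had the most counts of the members and the smallest p. It lies at chr12:33505200-33538234 on the plus strand in mm9, with 11 exons. Its level was 324, 209, 249 and 297 CPM in aged mice 1 to 4. In young mice 1 to 4 it was 200, 173, 206 and 230 CPM. Aged mice 1, 3 and 4 stood above all of the young mice, and aged mouse 2 lay among them, so the groups overlapped. The means were 269 ± 50.8 CPM in aged and 202 ± 23.2 CPM in young mice (SD, n = 4 each). This was a 1.33-fold difference with a 95% interval of 1.06 to 1.68 (log2 fold change 0.41, SE 0.15, edgeR), and it did not pass after adjustment (adjusted p = 0.130). The interval reached past 1.5, so a 1.5-fold rise was within it and a fall was not. Without aged mouse 1 the log2 fold change was 0.31 (adjusted p = 0.172), and over the 16 alternative settings the adjusted p ranged from 0.0650 to 0.265.

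Nmnat1, the nuclear enzyme of the next step, was the only member whose groups did not overlap in TMM-scaled CPM. It lies at chr4:148841681-148859311 on the minus strand in mm9. Aged mice 1 to 4 had 5.60, 11.1, 10.7 and 9.59 CPM, from 114 to 201 counts. Young mice 1 to 4 had 12.6, 11.95, 13.9 and 11.5 CPM, from 195 to 226 counts. Every aged mouse was below every young mouse on this scale. The highest aged value, 11.1 CPM, and the lowest young value, 11.5 CPM, differed by less than the counting error of 1 library, 6.65% to 9.37%. Scaled by counts on genes alone, aged mouse 2 (170 of 14820804) stood above young mouse 4 (195 of 17751976), so the groups overlapped. With TMM scaling the groups were likewise apart, in either direction, for 18.9% of all genes tested. The means were 9.25 ± 2.51 CPM and 12.5 ± 1.03 CPM (SD, n = 4 each), a fold of 0.740 with an interval of 0.539 to 1.02. The test gave a log2 fold change of -0.43 (SE 0.20, edgeR adjusted p = 0.215). Aged mouse 1 lay 1.14 below the young mean on the log2 scale at its level of 5.60 CPM, and without it the log2 fold change was -0.25 (adjusted p = 0.183). Of the stretches of fixed length along the Nmnat1 transcript, 3.75% lay wholly within near-identical copies elsewhere in mm9 (29 matches). This is a share of stretches and not of bases. No such copy was found for the other 9 members.

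Nmnat3, the mitochondrial enzyme, lies at chr9:98187854-98320946 on the plus strand in mm9. Its levels were 13.9, 16.6, 16.5 and 18.3 CPM in aged mice 1 to 4 and 18.0, 19.8, 18.4 and 18.4 CPM in young mice 1 to 4. The groups overlapped, since aged mouse 4 was above young mouse 1. The means of 16.3 ± 1.82 and 18.6 ± 0.788 CPM (SD, n = 4 each) gave a fold of 0.875, with an interval of 0.746 to 1.03 (adjusted p = 0.264, edgeR). The log2 fold change of Nmnat3 was -0.19, and -0.25 to -0.12 with 1 mouse left out. Nampt and the Nmnat genes therefore had estimates of opposite sign. Chosen after the values were seen, the ratio of Nampt counts to Nmnat1 counts within each library was 57.8, 18.9, 23.1 and 30.9 in aged mice 1 to 4. In young mice 1 to 4 it was 15.9, 14.5, 14.8 and 19.96. The ratio averaged 32.7 ± 17.5 in aged and 16.3 ± 2.51 in young mice (SD, n = 4 each), and 24.3 in aged mice without aged mouse 1. The highest young ratio exceeded the lowest aged ratio, so the groups overlapped, and the ratio received no test.

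**Figure D1:**
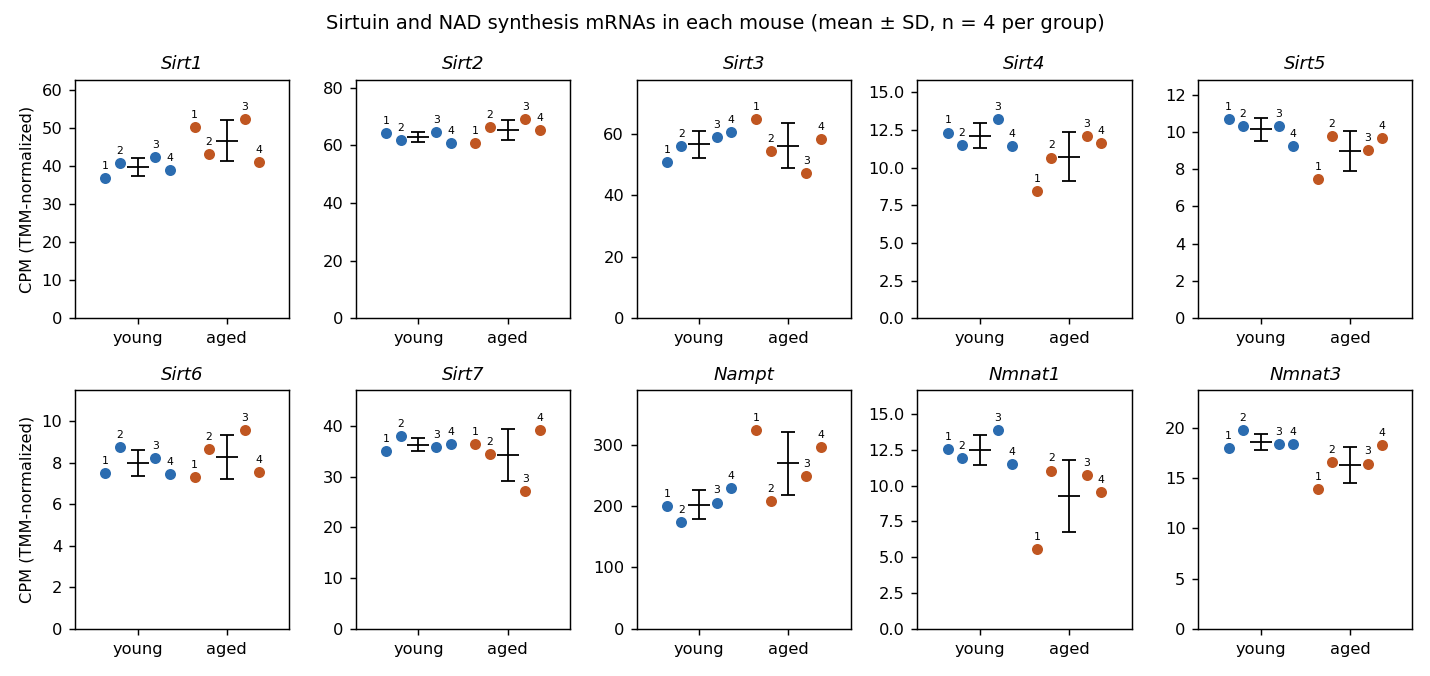
Level of each member in each mouse, in TMM-normalized CPM on a linear axis from 0. Points are mice numbered 1 to 4 within each group, and bars are mean ± SD (n = 4); the groups overlap for every member but Nmnat1, and the Nampt points of aged mice 1, 3 and 4 lie above all young points.

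Sirt1, a nuclear deacetylase of histones and of regulators such as p53, FoxO proteins and Ppargc1a, was the other member below the unadjusted threshold. It lies at chr10:62781753-62844452 on the minus strand in mm9, with 14 exons in its longest coding transcript. Its level was 50.3, 43.2, 52.2 and 41.1 CPM in aged mice 1 to 4. In young mice 1 to 4 it was 36.7, 40.8, 42.4 and 38.9 CPM. Aged mice 1, 2 and 3 were above all young mice, and aged mouse 4 was below young mouse 3. The means of 46.7 ± 5.39 and 39.7 ± 2.44 CPM (SD, n = 4 each) differed 1.18-fold, with an interval of 1.01 to 1.37. The log2 fold change of 0.23 (SE 0.10, edgeR) had an adjusted p of 0.174. The log2 fold change was 0.20 without aged mouse 1 and 0.18 without aged mouse 3, with unadjusted p of 0.074 and 0.104 (edgeR).

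The other nuclear sirtuins showed smaller estimates. Sirt6 acts on chromatin in DNA repair and glucose metabolism and lies at chr10:81084530-81090542 in mm9. Its level was 7.32, 8.65, 9.57 and 7.57 CPM in aged mice 1 to 4 and 7.52, 8.78, 8.23 and 7.44 CPM in young mice 1 to 4. The range of the aged mice contained that of the young mice, and the fold was 1.03 with an interval of 0.841 to 1.27 (adjusted p = 0.834, edgeR). Sirt7, the nucleolar sirtuin tied to ribosomal RNA transcription, lies at chr11:120479686-120486554 in mm9. Its level was 36.5, 34.4, 27.1 and 39.1 CPM in aged mice 1 to 4 and 35.1, 37.9, 35.8 and 36.3 CPM in young mice 1 to 4. Aged mouse 3 was the lowest of the 8 mice and aged mouse 4 the highest. The Sirt7 fold was 0.945, with an interval of 0.793 to 1.13 (adjusted p = 0.667, edgeR).

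Sirt2, the cytosolic sirtuin that deacetylates tubulin, was the steadiest member from mouse to mouse. It lies at chr7:29551754-29573684 on the plus strand in mm9. Its level was 60.8, 66.2, 68.95 and 65.4 CPM in aged mice 1 to 4 and 64.4, 62.0, 64.5 and 60.8 CPM in young mice 1 to 4. The means were 65.3 ± 3.37 and 62.9 ± 1.79 CPM (SD, n = 4 each). The fold of 1.04 had an interval of 0.934 to 1.15 (adjusted p = 0.631, edgeR), the narrowest of the 10 members.

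The mitochondrial sirtuins likewise did not pass the test. Sirt3, the main mitochondrial deacetylase, lies at chr7:148049569-148068208 in mm9 and was at 64.6, 54.4, 47.1 and 58.1 CPM in aged mice 1 to 4. In young mice 1 to 4 it was at 50.6, 55.8, 59.0 and 60.4 CPM. Aged mouse 1 was the highest of all and aged mouse 3 the lowest. The means were 56.0 ± 7.30 and 56.4 ± 4.35 CPM (SD, n = 4 each), a fold of 0.993 with an interval of 0.840 to 1.17 (adjusted p = 0.956, edgeR).

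Sirt4, which regulates glutamate dehydrogenase (Glud1) and fuel use, lies at chr5:115928019-115934734 in mm9. Its level was 8.45, 10.7, 12.1 and 11.7 CPM in aged mice 1 to 4 and 12.3, 11.5, 13.2 and 11.5 CPM in young mice 1 to 4. The fold was 0.884, with an interval of 0.718 to 1.09 (adjusted p = 0.417, edgeR). Sirt5, which removes succinyl, malonyl and glutaryl groups, lies at chr13:43460882-43490571 in mm9. Its level was 7.46, 9.76, 9.03 and 9.64 CPM in aged mice 1 to 4 and 10.7, 10.3, 10.3 and 9.21 CPM in young mice 1 to 4. The fold was 0.885, with an interval of 0.729 to 1.07 (adjusted p = 0.385, edgeR). For both genes aged mouse 1 was the lowest of the 8 mice. Without it the log2 fold changes were -0.08 for Sirt4 and -0.10 for Sirt5, against -0.18 for each with all mice.

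The width of the intervals shows how closely 8 libraries bound each change. For 8 of the 10 members, the 7 sirtuins and Nmnat3, the whole interval lay between a 1.5-fold fall and a 1.5-fold rise. This held for 53.3% of all genes tested. The intervals of Nampt and Nmnat1 each crossed one of these limits. Absence of a call is therefore not the same for every member, since a change above 1.5-fold lay outside the interval for the sirtuins and inside it for Nampt (higher) and Nmnat1 (lower). This holds for TMM scaling only. The log2 fold change of Sirt1 was 0.23 (SE 0.10) with it and 0.35 (SE 0.11) under library size scaling, nearer to the 1.5-fold limit.

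**Figure D2:**
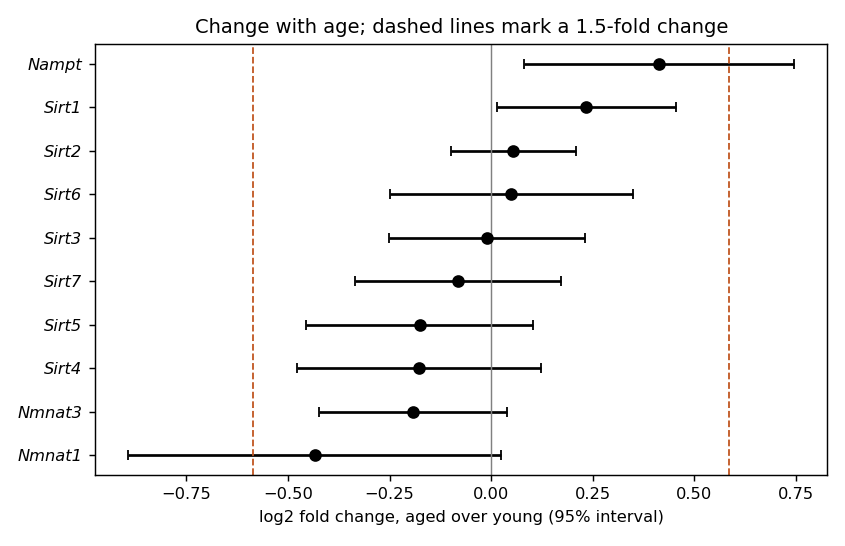
Log2 fold change of each member, aged over young, with its 95% interval from the edgeR fit (n = 4 per group); dashed lines mark a 1.5-fold change in either direction. The intervals of Nampt and Sirt1 lie above 0, those of the other 8 members include 0, and only those of Nampt and Nmnat1 cross a dashed line.

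The members varied more among aged than among young mice. The SD as a percentage of the mean was larger over aged mice in 10 of 10 members, which was also the case for 83.2% of all genes tested. Its median over the members was 12.8% in aged and 6.53% in young mice, and over all genes 17.2% and 8.48%. In the weakly expressed members the spread among young mice was about what counting gives. For Sirt5 it was 6.24% in young mice, and the counting error of 1 library was 7.16% to 8.17%. For Sirt6 it was 7.915% in young mice, with a counting error of 7.47% to 9.09%. Nampt, with 3026 to 6588 counts per library, had a counting error of only 1.23% to 1.82%, while its spread was 11.5% among young and 18.9% among aged mice. The largest spread among aged mice was that of Nmnat1, 27.2%, against 8.21% in young mice.

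Aged mouse 1 was often at an end of the range. It was the highest or lowest of the 8 mice in 7 of the 10 members, against 57.7% of all genes. It was highest for Nampt and Sirt3, and lowest for Sirt4, Sirt5, Sirt6, Nmnat1 and Nmnat3. Aged mouse 3 was at an end of the range in 5 members, as the highest for Sirt1, Sirt2 and Sirt6 and as the lowest for Sirt3 and Sirt7. Aged mouse 2 was at an end for none. The low proximal tubule marker sum of aged mouse 1 stands beside its Nampt and Nmnat1 values, and its part in them was not tested.

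**Figure D3:**
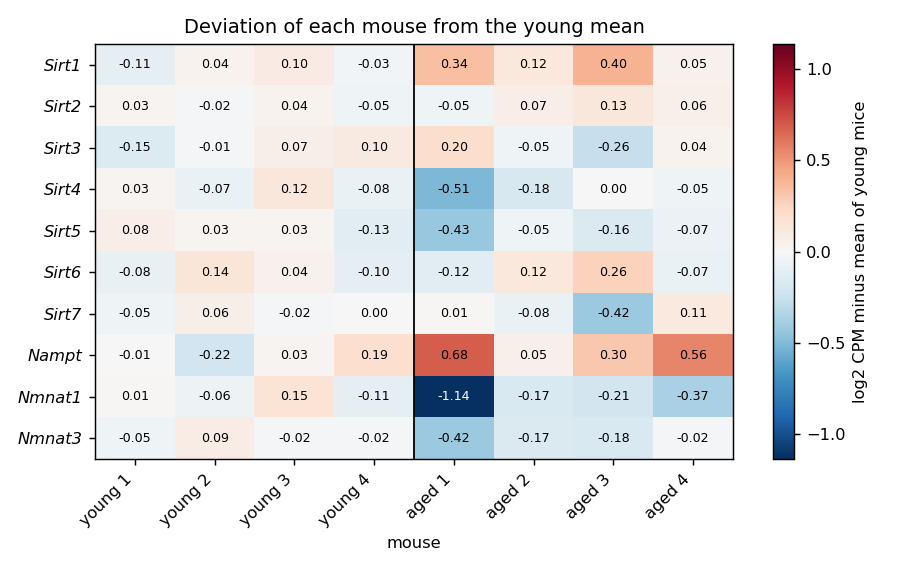
Deviation of each mouse from the mean of the young mice in log2 CPM, for each member (rows) and each of the 8 mice (columns); red is higher and blue lower, and the vertical line parts young from aged mice. The deepest cells are in aged mouse 1, at 0.68 for Nampt and -1.14 for Nmnat1, and the young mice stay between -0.22 and 0.19.

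Levels of different genes were compared per kilobase of the longest coding transcript in the mm9 annotation, as CPM per kilobase. In young mice Nampt was highest at 44.5 ± 5.11, then Sirt3 at 38.6 ± 2.97 and Sirt2 at 34.1 ± 0.973 CPM per kilobase (SD, n = 4 each). Neighbours among these 3 overlapped in range. Sirt7 followed at 21.0 ± 0.702 CPM per kilobase and overlapped with neither neighbour. Sirt1 at 8.96 ± 0.551 and Nmnat3 at 8.64 ± 0.365 CPM per kilobase overlapped, as did Sirt5 at 6.98 ± 0.435 and Sirt4 at 6.75 ± 0.460. Nmnat1 at 4.70 ± 0.386 and Sirt6 at 4.23 ± 0.335 CPM per kilobase were the lowest and overlapped as well. Among the sirtuins, the mitochondrial Sirt3 and the cytosolic Sirt2 thus had the highest levels per length, and Sirt6 the lowest.

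The order in aged mice was the same but for the last pair. Nampt was at 59.3 ± 11.2 CPM per kilobase (SD, n = 4) and no longer overlapped with Sirt3 at 38.4 ± 5.00. Sirt1, at 10.5 ± 1.22 CPM per kilobase, no longer overlapped with Nmnat3 at 7.57 ± 0.843. Nmnat1 was in last place at 3.48 ± 0.946 CPM per kilobase, with a range that overlapped with that of Sirt6 at 4.38 ± 0.548. These are positions within a group and not tests. With the union of all annotated exons as the length, Sirt1 stood above Sirt7, and Nmnat3 came 9th in young mice at 3.66 CPM per kilobase. On that length Sirt1 and Sirt7 overlapped in young mice. Sirt3, at 32.2 to 38.5 CPM per kilobase in young mice, then did not overlap with Sirt2 at 17.1 to 18.1.

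**Figure D4:**
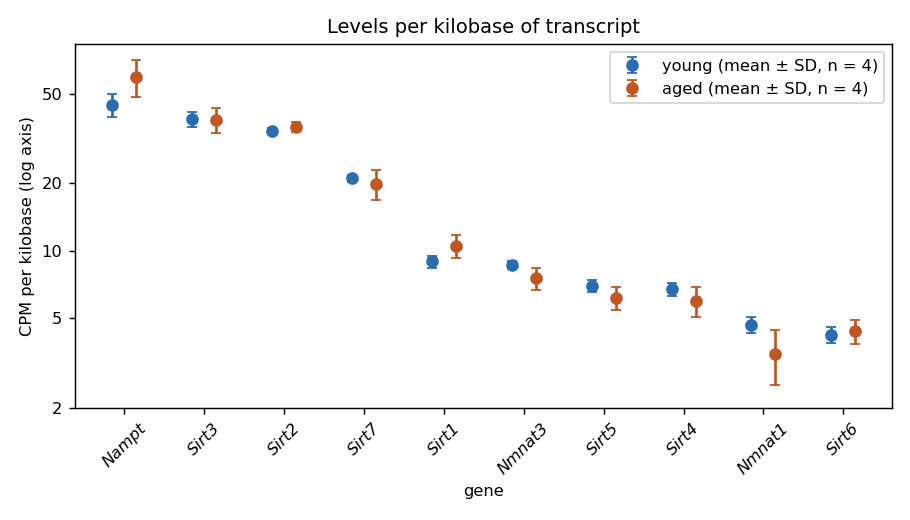
Level of each member in CPM per kilobase of its longest coding transcript on a log axis, as mean ± SD of 4 young (blue) and 4 aged (orange) mice, ordered by the young mean. Nampt, Sirt3 and Sirt2 lie above 30 in both groups, Sirt7 near 20, and the other 6 members at or below 10.5.

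The genes whose profile over the 8 libraries was most like that of Nampt were Clasrp, Ech1, Rhoq, 1110038B12Rik and Nrp. Their centred log2 CPM differed from that of Nampt by a root mean square of 0.09 to 0.11, while the SD of Nampt itself over the 8 libraries was 0.30. For Sirt1 the nearest genes were Wipf2, Ngdn, Brd9, Pom121 and Pold1, at 0.04 to 0.05, beside an SD of 0.17 for Sirt1. The 8 libraries share their scaling, and aged mouse 1 weighs on both profiles, so this is a description over 8 points.

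The genes around the members were taken from lists of 75 genes, of which 67 were tested. In these lists 3 genes were higher (Arntl, Npas2 and Kynu) and 1 was lower (Nr1d2) in aged mice by edgeR, beside the 2.06% called over all genes. At an unadjusted p below 0.05 there were 18 of 67, beside the 25.5% of all genes given above, and the median log2 fold change was 0.03, equal to that of all genes tested at this precision. The groups did not overlap for 6 of the 67 genes with aged mice higher and for 9 with aged mice lower. Among all genes tested the groups did not overlap, in either direction, for 18.9%. Without any 1 of the young mice only 1 gene of these lists was called, Arntl.

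Routes to NAD other than Nampt begin from tryptophan, nicotinic acid and ribosides. Of the 7 tryptophan pathway genes tested, edgeR called 1, Kynu, and DESeq2 and limma-voom also called Ido2. Kynu, the kynureninase of the pathway, was at 35.2, 66.9, 82.1 and 31.5 CPM in aged mice 1 to 4 and at 7.58, 11.3, 14.7 and 9.21 CPM in young mice 1 to 4. Every aged mouse was above every young mouse, and the log2 fold change was 2.33 (SE 0.34, adjusted p = 0.0217, edgeR). The call was lost without any 1 of the young mice, with an adjusted p up to 0.102, while the log2 fold change stayed at 2.20 to 2.52. Over all genes 8 to 35 were called in those fits. Ido2, a tryptophan dioxygenase of the first step named after its values were seen, had a log2 fold change of -0.74 (adjusted p = 0.0670, edgeR), with every aged mouse below every young mouse. The later enzymes did not pass. Haao, which makes the quinolinate precursor, had a log2 fold change of -0.42, and Qprt, which turns quinolinate into the nicotinic acid mononucleotide that Nmnat enzymes use, had -0.39. Their aged mice all lay below the young mice, with adjusted p of 0.163 and 0.224 (edgeR). Without aged mouse 1 the log2 fold changes were -0.27 for Haao and -0.21 for Qprt. Acmsd, which diverts the pathway away from NAD, was at 31.7, 287, 108 and 96.2 CPM in aged mice 1 to 4. In young mice it ranged from 184 to 246 CPM, so the overlap came from aged mouse 2 alone. Its log2 fold change was -0.70 (adjusted p = 0.414, edgeR). It was -1.43 without aged mouse 2 (adjusted p = 0.0828, edgeR) and -0.37 without aged mouse 1.

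In the nicotinic acid and riboside list edgeR called none of the 4 genes tested, and DESeq2 called 1, Nt5e. Nt5e, the ectonucleotidase CD73 that splits extracellular nucleotides, had a log2 fold change of -0.91 (adjusted p = 0.0683, edgeR), with 76.0 to 124 CPM in aged and 119 to 255 CPM in young mice. Naprt, the nicotinic acid counterpart of Nampt, was at 35.5 ± 5.36 and 31.8 ± 2.26 CPM (SD, n = 4 each, adjusted p = 0.399, edgeR). Nadsyn1, the NAD synthetase of that route, had a log2 fold change of -0.03. Nmnat2, the Golgi and cytosol partner of Nmnat1 and Nmnat3, did not pass the filter on low counts.

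NAD is also phosphorylated, moved into mitochondria and reduced there, and none of the 3 genes tested was called. Nadk, the NAD kinase, was at 172 ± 15.6 CPM in aged and 220 ± 10.3 CPM in young mice (SD, n = 4 each) without overlap (log2 fold change -0.35, adjusted p = 0.0614, edgeR). By DESeq2 its adjusted p was 0.00303, and by edgeR with 1 mouse left out it was 0.0311 to 0.165. The change of Nadk was smaller than 1.5-fold in every setting, so it was not called. Nnt, the mitochondrial transhydrogenase, also did not overlap, at 118 to 140 CPM in aged and 146 to 231 CPM in young mice (log2 fold change -0.38, adjusted p = 0.163, edgeR), and its log2 fold change was -0.20 without young mouse 1. Slc25a51, the mitochondrial NAD carrier listed in the counts as Mcart1, had a log2 fold change of -0.12. All 3 estimates were below 0.

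Enzymes that compete with sirtuins for NAD were not called by edgeR or DESeq2 in any of the 17 tested. Cd38, an NAD glycohydrolase, was at 10.3, 12.1, 9.41 and 8.88 CPM in aged mice 1 to 4 and at 13.6, 13.1, 14.3 and 14.1 CPM in young mice 1 to 4. Every aged mouse was below every young mouse (log2 fold change -0.44, adjusted p = 0.0752, edgeR). DESeq2 gave Cd38 an adjusted p of 0.0181, and it was not called there because its change was smaller than 1.5-fold. Parp6 had a log2 fold change of 0.44 (adjusted p = 0.117, edgeR), and 0.36 without aged mouse 1. Parp1, the main DNA damage-responsive poly(ADP-ribose) polymerase, had a log2 fold change of -0.04. Of the 3 genes that remove nicotinamide edgeR called none, and DESeq2 called 1, Aox3. Nnmt, the nicotinamide methyltransferase, was low in both groups at 0.428 to 2.31 CPM in aged and 0.680 to 1.36 CPM in young mice. The log2 fold changes of the oxidases Aox3 and Aox1 were 1.60 and 1.39, and 0.74 and 0.31 without aged mouse 1.

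Of 13 regulators and nuclear partners of sirtuins, none was called. Nfkb1, whose partner subunit is a Sirt1 substrate, did not overlap between groups, at 45.7 ± 1.59 against 38.7 ± 1.96 CPM (SD, n = 4 each, adjusted p = 0.0858, edgeR). DESeq2 gave Nfkb1 an adjusted p of 0.0374 at a change smaller than 1.5-fold. Ppargc1a, the coactivator of mitochondrial biogenesis, was at 176 ± 19.8 and 148 ± 11.4 CPM (SD, n = 4 each, adjusted p = 0.163, edgeR). Ccar2, an inhibitor of Sirt1, had a log2 fold change of 0.07. Of 10 mitochondrial and acetate-using substrates tested, none was called. Sod2, the mitochondrial superoxide dismutase and a Sirt3 substrate, was at 269, 363, 342 and 387 CPM in aged mice 1 to 4 and at 404, 393, 402 and 419 CPM in young mice 1 to 4. The groups of Sod2 did not overlap, and the log2 fold change was -0.25 (adjusted p = 0.212, edgeR), and -0.15 without aged mouse 1. Idh2, another Sirt3 substrate, had a log2 fold change of 0.03. Acss2, the cytosolic acetyl-CoA synthetase acted on by Sirt1, had a log2 fold change of -0.47 (adjusted p = 0.181, edgeR). Its log2 fold change was -0.33 without aged mouse 1.

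The circadian clock is known to drive Nampt transcription in other tissues, so its genes were set beside Nampt. Arntl, which encodes Bmal1, was at 36.6, 37.4, 38.5 and 22.2 CPM in aged mice 1 to 4 and at 5.36, 5.13, 4.28 and 5.55 CPM in young mice 1 to 4. Its log2 fold change was 2.73 (SE 0.19, adjusted p = 0.00142, edgeR). Npas2, a Clock paralog, had a log2 fold change of 2.80 (SE 0.41, adjusted p = 0.0206, edgeR), and Nr1d2, a repressor of Arntl, had -0.77 (SE 0.13, adjusted p = 0.0267, edgeR). The remaining 7 of the 10 clock genes were not called by edgeR. Cry1, named after its values were seen, had a log2 fold change of 1.26 (adjusted p = 0.0731, edgeR) and was called by DESeq2 and under library size scaling. The hour at which tissue was taken is not in the sources used here, so clock phase and age cannot be told apart for these genes.

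**Figure D5:**
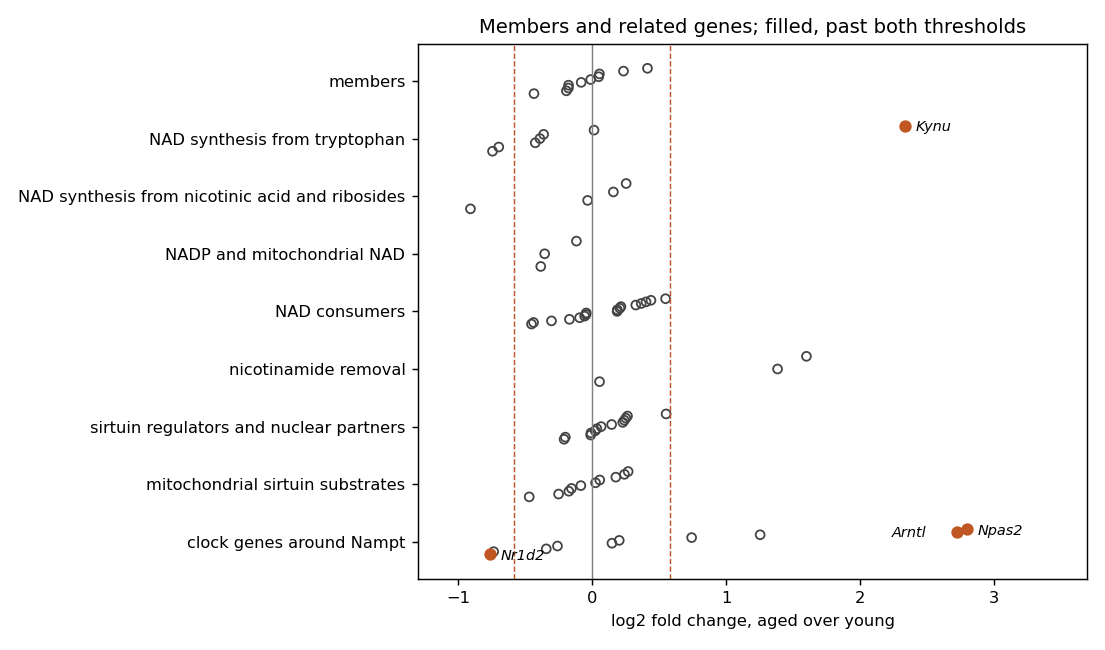
Log2 fold change, aged over young, of the 10 members and of 67 related genes grouped by role; filled points passed both thresholds, open points did not, and dashed lines mark a 1.5-fold change. All 10 members lie between the dashed lines, and the 4 filled points are Kynu, Npas2, Arntl and Nr1d2.

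Markers of other kidney cells stood beside these results as follows. In aged and young mice the summed levels were 2222 to 3729 and 3082 to 5249 CPM for 5 thick ascending limb markers, and 1384 to 1755 and 1118 to 1793 CPM for 4 distal convoluted tubule markers. They were 374 to 507 and 382 to 447 CPM for 7 collecting duct markers, 315 to 611 and 434 to 530 CPM for 5 podocyte markers, and 324 to 501 and 394 to 426 CPM for 5 endothelial markers. For 10 macrophage and lymphocyte markers they were 198 to 302 and 191 to 267 CPM, and for 5 fibroblast and smooth muscle markers 157 to 253 and 239 to 288 CPM. A sum follows its most abundant markers, and markers of 1 list could differ in sign. Estimates were above 0 for 2 and below 0 for 2 distal convoluted tubule markers, and for 4 and 6 proximal tubule markers. No marker was at 0 in all libraries, and 1 was called, Csf1r, the macrophage growth factor receptor, which was lower in aged mice (log2 fold change -1.004, adjusted p = 0.0472, edgeR). The other 7 tested genes of the macrophage and lymphocyte list had positive estimates that did not pass, and the median of the list was 0.49. Over all genes 7545 of 13944 estimates were positive. Cd3e, Cd8a and Cd79a of this list, named for their low levels, had means of 0.937, 1.60 and 0.645 CPM in aged mice. In young mice their means were 0.659, 0.947 and 0.429 CPM. The part of these cells in the values of the members was not tested.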

How the data were processed

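Kidney cortex RNA of 4 aged and 4 young mice was sequenced. The authors depleted ribosomal RNA, made stranded libraries, sequenced paired ends, mapped the reads to mm9 (TopHat2) and, with HTSeq, assigned pairs to RefSeq genes with regard to strand. The deposited values are raw counts per gene without normalization. Per the labels the tools also included CASAVA 1.8.2 and SAMtools, and other versions are not given in the sources used here. Each library's own table was used, and the 8 columns of a joint table were not. Lines that name no gene entered neither library sizes nor tests. They held pairs on no gene (19.95% to 29.9% of each table's total), aligned to several places (34.3% to 39.1%) or ambiguous (at most 0.346%). Pairs aligned to several places do not reach the gene counts.

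Counts were analyzed in R 4.3.3 with edgeR 4.0.16: filterByExpr (minimum count 10), TMM scaling, a quasi-likelihood test over 8 libraries without covariates, and Benjamini-Hochberg adjustment over 13944 genes. Intervals are 95%. A change needed an adjusted p below 0.05 and a fold above 1.5. Log2 CPM used a prior count of 2. Each library came from 1 mouse, and the test sets the group difference against variation between mice. That variation is moderated over all genes (median of 9.06 degrees of freedom). Floors and counting errors cover counting only. Alternatives were DESeq2 size factors, upper-quartile and library size scaling, DESeq2 1.42.0, limma-voom with quality weights (limma 3.58.1), other filters, no fold threshold, the replicate number as a block and each mouse left out. The code was tested on simulated counts. Gene models came from the NCBIM37 (mm9) annotation and near-identical copies from BLAST 2.17.0. Of 75 related genes 73 were matched in the counts; Nmrk1 and Nadk2 were not. Another gene of the lists is not reported here. The text names all members, the genes of each list with an adjusted p below 0.05 or otherwise the 2 with the smallest p, role partners of members, and the 5 genes most like Nampt and Sirt1. The members and lists were chosen with earlier results of these data known.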

Additional observations from a re-analysis of the deposited data

Results flagged for a closer look

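Within-group extremes were sought in 70 groups of 4 mice, with the gap of the highest or lowest mouse to its nearest neighbour divided by the range of the group. Chance is expected to pass 3.5 of them at the 95% critical value, and 4 passed, none of them a member. Aox3 in aged mouse 1 (7.81 CPM, against 1.798 to 1.92 CPM in the other aged mice) had a ratio of 0.979, and Aox1 in the same mouse (10.2 CPM, against 1.66 to 2.23 CPM) had 0.933. Nnt in young mouse 1 (231 CPM, against 146 to 152 CPM in the other young mice) had a ratio of 0.924. Arntl in aged mouse 4 (22.2 CPM, against 36.6 to 38.5 CPM) had a ratio of 0.883. Causes of these values were not tested.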

How the results depend on the processing

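The number of members called was 0 under every alternative run, each mouse left out included (0 to 0). Related genes called numbered 4, with 8 by DESeq2 and 1 to 5 with 1 mouse left out. Over all genes 287 were called (163 higher), with 488 under library size scaling (368 higher), 873 by DESeq2, 483 by limma-voom (238 higher), 130 with the replicate number as a block, and 8 to 733 with 1 mouse left out, the extremes being without young mouse 1 and without aged mouse 4. Signs turned for small estimates. Sirt3 was 0.030 under upper-quartile and 0.10 under library size scaling, and -0.086 to 0.063 with 1 mouse left out. Sirt7 was 0.025 under library size scaling and -0.15 to 0.015 with 1 mouse left out, and Sirt6 was -0.029 to 0.10. Nadsyn1 was 0.0038 under upper-quartile scaling, 0.070 under library size scaling, 0.0012 by limma-voom and -0.17 to 0.046 with 1 mouse left out. Parp1 was 0.065 under library size scaling and -0.076 to 0.014 with 1 mouse left out, and Idh2 was -0.020 to 0.10. Nnmt was -0.52 by limma-voom, -0.12 with the block and -0.69 to 0.32 with 1 mouse left out. These are log2 fold changes, and the causes were not tested. Same-numbered mice are not tied to each other by the labels. Their deviations correlated at 0.21, 0.04, 0.20 and -0.03 over genes, 3 of the 4 aged mice correlated best with their own number, and the replicate block called 0 members and 4 related genes. Levels per kilobase moved by more than the SD in 15 of 20 cases with the union of exons as length, among them Sirt2 in young mice (17.6) and Sirt7 in young mice (7.05), and in 2 under library size scaling. With 4 mice per group, differences inside the intervals given for the members could not be resolved.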
